A study of Mus musculus with 2 samples.

Results

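The 10 genes described here are the core of the mouse Hippo pathway: the transcriptional coactivator genes Yap1 and Wwtr1 (the gene of the protein Taz), the DNA-binding partner genes Tead1, Tead2, Tead3 and Tead4, and the kinase genes Lats1, Lats2, Stk3 and Stk4. They were taken by gene symbol, all 10 were found, and they are 10 of 43346 mouse gene rows in the deposited tables. The data were 2 total RNA libraries of the facial prominence of B6NCrl embryos at embryonic day 12.5, with 10 ng of RNA for each library. Replicate 1 came from 120 pooled embryos of both sexes and replicate 2 from 88. The embryos were labelled healthy, no treatment or genetic alteration was named, and there was 1 group with no contrast between conditions. A pool averages over all embryos and all cell types of the face, and both labels carry the same donor identifier.

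Summed expected counts (estimated reads per gene) were 27890681 in replicate 1 and 39969716 in replicate 2, and the 10 genes received 20637 and 29114 of them. Markers fitted the labelled tissue. All 6 genes of facial mesenchyme and all 5 of epithelium reached 10 TPM (a transcript level corrected for length and library total) in both libraries, whereas 0 of 6 markers of liver, gut and heart reached 1 TPM. Skeletal muscle, endothelium, red blood cells, neurons and macrophages were also represented by their markers, so each level is that of a mixture. In such bulk RNA, fewer cells of a type and less RNA per cell cannot be told apart.

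Hippo signalling controls organ size and cell fate through a short kinase cascade. The kinases Mst2 (gene Stk3) and Mst1 (gene Stk4) activate Lats1 and Lats2, which phosphorylate Yap and Taz and so keep them out of the nucleus. Unphosphorylated Yap and Taz enter the nucleus and bind Tead proteins, which contact DNA at CATTCC-type elements and switch on genes of growth and matrix. In the face, Yap and Taz are known to act in cranial neural crest cells, the source of facial mesenchyme. RNA levels do not report the phosphorylation that sets the activity of the pathway.

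Several of these genes make more than 1 coding transcript, and the alternative stretches below are shown because the isoform results turn on them. Each sequence is given 5′ to 3′ in the sense of the gene, from GENCODE M21 transcripts (GRCm38). The stretch is in capitals, with 15 bases of the neighbouring coding sequence in lower case on each side. The Tead1 next exon, not counted as an alternative stretch, and the Tead3 microexon are shown for comparison. The flanks of the next exon are those of a transcript that holds both alternative Tead1 stretches. The Yap1 exon (chr9:7950492-7950539, minus strand, 48 bases) belongs to Yap1-201 and is skipped in Yap1-202. The Tead1 exon of 63 bases (chr7:112841888-112841950, plus strand) and the Tead1 microexon of 12 bases (chr7:112856053-112856064) are alternative, while a Tead3 microexon of 12 bases (chr17:28335485-28335496, minus strand) is in every coding Tead3 transcript of the table that spans it. The Tead2 stretch of 105 bases (chr7:45217346-45217450, plus strand) is the end of an exon with an alternative splice site, and the Tead4 exon (chr6:128247960-128248088, minus strand, 129 bases) is skipped in Tead4-203.
Yap1 exon: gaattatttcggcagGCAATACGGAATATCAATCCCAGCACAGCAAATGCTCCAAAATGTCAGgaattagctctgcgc
Tead1 exon: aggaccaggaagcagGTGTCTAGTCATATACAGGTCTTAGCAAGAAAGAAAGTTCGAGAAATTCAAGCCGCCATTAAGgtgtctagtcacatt
Tead1 next exon: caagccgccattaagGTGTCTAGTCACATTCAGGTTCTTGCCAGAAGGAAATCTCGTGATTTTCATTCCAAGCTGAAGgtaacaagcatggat
Tead1 microexon: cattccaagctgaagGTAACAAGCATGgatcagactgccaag
Tead3 microexon: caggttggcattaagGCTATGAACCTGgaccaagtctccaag
Tead2 exon end: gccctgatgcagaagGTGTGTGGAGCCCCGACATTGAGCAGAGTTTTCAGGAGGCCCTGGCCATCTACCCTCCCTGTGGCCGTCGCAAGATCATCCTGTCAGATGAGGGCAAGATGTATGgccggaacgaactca
Tead4 exon: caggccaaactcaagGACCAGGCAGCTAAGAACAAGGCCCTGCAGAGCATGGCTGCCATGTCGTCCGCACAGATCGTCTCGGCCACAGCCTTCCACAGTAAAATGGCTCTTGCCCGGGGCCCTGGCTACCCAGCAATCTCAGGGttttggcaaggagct
Every alternative stretch has a length divisible by 3, so that its inclusion adds whole codons: 16 in Yap1, 21 and 4 in Tead1, 35 in Tead2 and 43 in Tead4. The Tead3 microexon holds 4 codons. The Tead1 exon of 63 bases is followed by another exon of 63 bases (chr7:112842040-112842102), and 44 of their 63 positions hold the same base. The microexons of Tead1 and Tead3 matched at 6 of 12 positions.

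All 10 genes were detected, with mean levels that spanned 2.51 to 236.48 TPM. Tead2 stood far above the others, Yap1 and Stk3 followed, and Tead4 was lowest. All 10 reached 1 TPM in both libraries, against 61.8% of the 21461 protein-coding genes, and 8 reached 10 TPM in both, against 41.6%. Lats1 and Tead4 were the exceptions at 10 TPM. The median of the mean TPM was 20.87 for the 10 genes and 5.22 for all protein-coding genes.

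**Figure D1:**
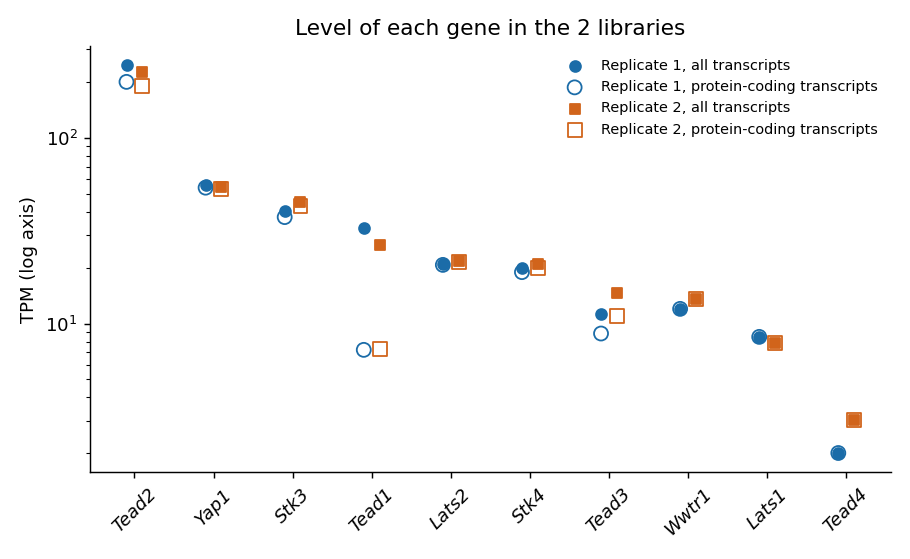
TPM of each of the 10 genes on a log axis, in replicate 1 (circles) and replicate 2 (squares), ordered by mean level. Filled symbols sum all transcripts and open symbols sum protein-coding transcripts, and they part most for Tead1, with 7.22 TPM (replicate 1) and 7.30 TPM (replicate 2) once its retained-intron transcripts are left out.

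Yap1 (chr9:7931999-8004596, minus strand) was the second most abundant of the 10, with 55.87 TPM in replicate 1 and 54.66 TPM in replicate 2. Its level ranked 3155 among protein-coding genes and differed little between the pools (55.3 ± 0.856 TPM, SD, n = 2). Wwtr1 (chr3:57455649-57575910, minus strand), whose product Taz shares the Tead-binding role of Yap, had 12.0 TPM in replicate 1 and 13.64 TPM in replicate 2, or 12.8 ± 1.16 TPM. Yap1 was thus above Wwtr1 in both libraries and the values do not overlap. The log2 ratio of Yap1 over Wwtr1 was 2.22 in replicate 1 and 2.00 in replicate 2, a 4.32-fold higher level of Yap1 at the mean of 2.11 ± 0.15. Yap1 held 82.3% of the summed Yap1 and Wwtr1 TPM in replicate 1 and 80.0% in replicate 2, and the sum itself was 67.87 and 68.30 TPM.

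The Yap1 transcript without the 48-base exon was the major form. Yap1-202 held 70.6% of the gene's TPM in replicate 1 and 74.1% in replicate 2, and Yap1-201, which has the exon, held 22.9% and 17.6%. Counted over coding transcripts that span it, the exon printed above was in 26.8% of the TPM in replicate 1 and 23.9% in replicate 2 (25.4 ± 2.09%). The exon lengthens the C-terminal transactivation region of the protein. The deposited intervals of Yap1-201 were wide, at 7.76 to 16.7 TPM in replicate 1 and 6.59 to 12.4 TPM in replicate 2, and overlapped between the pools. For Wwtr1 a single transcript, Wwtr1-201, carried 96.7% of the TPM in replicate 1 and 99.6% in replicate 2.

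Tead2 dominated the Tead family. Tead1 came next when all transcripts were summed, but on coding transcripts only it held 3.31% and 3.45% of the Tead TPM, below Tead3 with 4.05% and 5.22%. Tead1 (chr7:112679318-112906807, plus strand), a factor of heart and muscle development, had 32.52 TPM in replicate 1 and 26.58 TPM in replicate 2 (29.55 ± 4.20 TPM, SD, n = 2). Tead2 (chr7:45215753-45233644, plus strand), a Tead gene known from the early embryo and the neural folds, had 245.63 TPM in replicate 1 and 227.33 TPM in replicate 2. With 236.48 ± 12.9 TPM it ranked 581 among protein-coding genes and alone made up 54.7% and 52.2% of the summed TPM of the 10 genes. Of the 4 Teads together (291.48 TPM in replicate 1 and 271.44 TPM in replicate 2), Tead2 held 84.3% and 83.7%.

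The remaining Teads were low. Tead3 (chr17:28331671-28350817, minus strand), known from the placenta, had 11.32 TPM in replicate 1 and 14.52 TPM in replicate 2 (12.9 ± 2.26 TPM). Tead4 (chr6:128224288-128300823, minus strand), needed for the trophectoderm, had 2.01 TPM in replicate 1 and 3.01 TPM in replicate 2 (2.51 ± 0.707 TPM). Tead1 and Tead2 were higher in replicate 1, Tead3 and Tead4 in replicate 2, and the ranges of the 4 Teads did not overlap. Tead4 rested on 79 and 169 counts, which give counting intervals (95%, exact Poisson) of 1.59 to 2.51 TPM in replicate 1 and 2.57 to 3.50 TPM in replicate 2. These intervals lie just apart, and the counting intervals of Tead1, Tead2, Tead3, Wwtr1 and Stk3 also lie apart. Counting intervals take a gene's summed counts and leave out the uncertain split of reads among its transcripts. The deposited intervals of the transcripts Tead4-201 and Tead4-203 each overlapped between the pools. So did those of Tead1-209, Tead1-214, Tead2-201 and Tead3-201, while those of Wwtr1-201 and Stk3-201 lay apart.

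Within each library, the log2 ratio of Tead1 over Tead2 was -2.92 in replicate 1 and -3.10 in replicate 2, so Tead1 was 8.04-fold lower at the mean. Tead1 over Tead4 was 4.02 and 3.14, an 11.95-fold higher level of Tead1. On coding transcripts only, the mean log2 ratios were -4.75 for Tead1 over Tead2 and 1.56 for Tead1 over Tead4. Tead1 over Tead3 was 1.52 in replicate 1 and 0.87 in replicate 2. A ratio was called where it lay past 1 or -1 in both libraries, so Tead1 over Tead3 was not called, by the value of replicate 2.

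**Figure D2:**
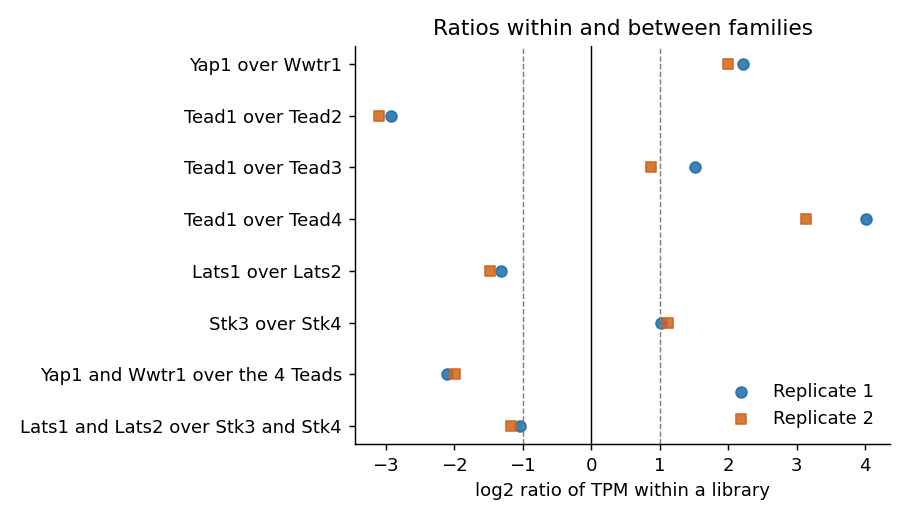
Log2 ratio of TPM within a library for 8 comparisons among the 10 genes, in replicate 1 (circles) and replicate 2 (squares), with dashed lines at -1 and 1. Both libraries lie past a line in 7 of the 8, and Tead1 over Tead3 has 1 library on each side of 1.

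Most of the Tead1 TPM was assigned to short annotated transcripts that keep intron sequence. Whether their reads came from unspliced RNA in these total RNA libraries was not tested. Tead1-209 (646 bases) held 55.5% of the gene's TPM in replicate 1 and 50.4% in replicate 2, and Tead1-214 (894 bases) held 22.3% and 22.1%. The extended exons of Tead1-209 and Tead1-214 (chr7:112841888-112842374 and chr7:112842040-112842395) begin at the starts of the Tead1 exon and of the next exon printed above. These extended exons overlap, and the split of reads between both forms was not tested. The long coding form Tead1-202 (9480 bases) had 5.55 TPM in replicate 1 and 5.57 TPM in replicate 2.

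The shares of Tead1 depended on the quantity. Retained-intron transcripts held 77.8% of the TPM in replicate 1 and 72.5% in replicate 2, but 20.4% and 16.4% of the expected counts. Coding transcripts held 79.6% and 83.6% of the counts. TPM divides each count by the length of its transcript, and the coding form Tead1-202 is much longer than either retained-intron form. Coding Tead1 TPM was 7.22 in replicate 1 and 7.30 in replicate 2, so the difference between the pools in summed Tead1 TPM lies in the retained-intron forms. On coding transcripts the log2 ratio of Tead1 over Tead3 turned to -0.44 at the mean, and Tead2 held 91.7% and 89.9% of the Tead TPM.

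**Figure D3:**
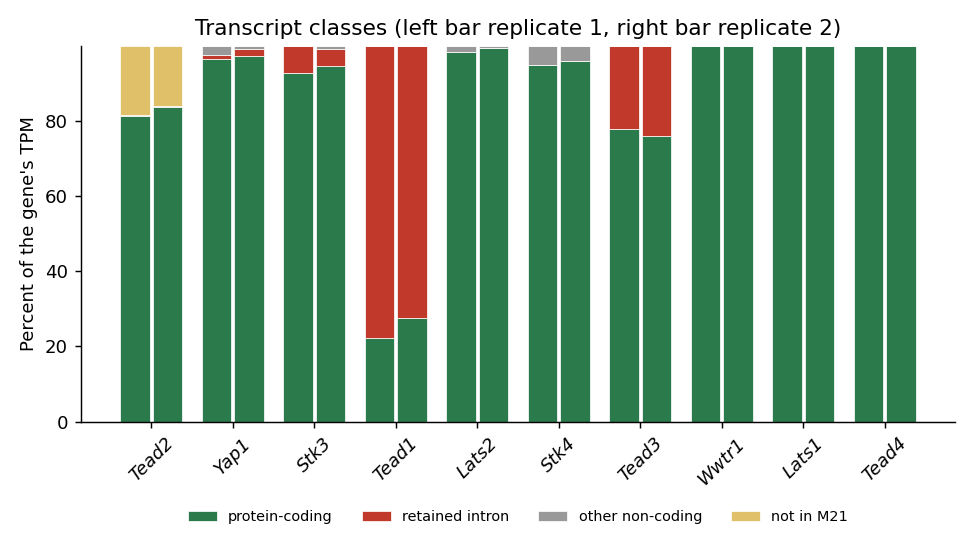
Percent of each gene's TPM by transcript class, with replicate 1 as the left bar and replicate 2 as the right bar of each gene. Retained-intron transcripts make up 77.8% and 72.5% for Tead1 and 21.98% and 23.97% for Tead3, while Wwtr1, Lats1 and Tead4 are wholly protein-coding and Tead2 has 18.4% and 16.1% in transcripts that GENCODE M21 does not hold.

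The alternative stretches of the Teads, counted over coding transcripts that span them, differed in use. The 105-base exon end was in 84.7% of the coding Tead2 TPM in replicate 1 and 87.8% in replicate 2. In Tead1, the 63-base exon was in 13.2% and 12.6% and the microexon in 20.1% and 18.4%, so that the form without either led. The Tead3 microexon was in 100% of the coding TPM in both libraries. That share was fixed by the annotation, since every coding Tead3 transcript counted holds the microexon. A Tead3 transcript that M21 does not hold was not counted. Nor were 8 Tead2 transcripts outside M21, which had 45.08 TPM in replicate 1 and 36.58 TPM in replicate 2. That is more than the coding Tead2 transcripts without the exon end (30.58 and 23.21 TPM). Whether those 8 hold the exon end was not tested, so its Tead2 share covers M21 coding transcripts only.

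The 129-base Tead4 exon was in 45.8% of the coding TPM in replicate 1 and 47.8% in replicate 2, with few counts behind it. Tead2-201 was the leading Tead2 transcript, at 62.8% of the gene's TPM in replicate 1 and 67.3% in replicate 2, ahead of Tead2-202 at 12.4% and 10.2%. Tead3 was split between Tead3-201 (45.9% and 54.4%), Tead3-206 (30.6% and 17.8%) and the retained-intron Tead3-202 (20.9% and 11.0%). The interval of Tead3-201 reached 0.934 to 6.34 TPM in replicate 1, so the order of the Tead3 forms is uncertain.

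Among the kinases, Lats1 stood below Lats2, and Stk3 above Stk4. Lats1 (chr10:7681214-7716460, plus strand) had 8.47 TPM in replicate 1 and 7.82 TPM in replicate 2 (8.145 ± 0.460 TPM). Lats2 (chr14:57689662-57758388, minus strand), which is itself a Yap target, had 21.02 TPM in replicate 1 and 21.67 TPM in replicate 2 (21.3 ± 0.460 TPM). The log2 ratio of Lats1 over Lats2 was -1.31 in replicate 1 and -1.47 in replicate 2, a 2.62-fold lower level of Lats1. Their sum was the same in both libraries, at 29.49 TPM.

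Stk3 (chr15:34875496-35178921, minus strand) had 40.37 TPM in replicate 1 and 45.32 TPM in replicate 2 (42.8 ± 3.50 TPM). Stk4 (chr2:164070322-164155524, plus strand) had 19.95 TPM in replicate 1 and 20.84 TPM in replicate 2 (20.4 ± 0.629 TPM). Stk3 was above Stk4 in both libraries, at a log2 ratio of 1.02 in replicate 1 and 1.12 in replicate 2. This 2.10-fold difference lies close to the limit of 1, and with posterior mean TPM in place of TPM the mean ratio of 1.03 was no longer called, since 1 library lay under the limit. Single coding transcripts led each kinase gene: Lats1-202 at 99.5% and 99.4%, Lats2-201 at 88.4% and 88.6%, Stk3-201 at 92.7% and 93.6%, and Stk4-201 at 80.2% and 80.8%.

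Between the layers of the pathway, the summed Lats kinases were below the summed Mst kinases and the summed coactivators below the summed Teads. The summed Lats1 and Lats2 over the summed Stk3 and Stk4 gave a log2 ratio of -1.03 in replicate 1 and -1.17 in replicate 2, a 2.14-fold lower level. This call was lost with posterior mean TPM (-1.05) and with coding transcripts (-1.02), where 1 library lay inside the limit. The summed Yap1 and Wwtr1 over the 4 Teads gave -2.10 and -1.99, a 4.13-fold lower level, and a mean of -1.69 on coding transcripts. This ratio rests on Tead2, which held 84.3% and 83.7% of the Tead sum. Tead1, Tead3 and Tead4 were each below Yap1 in both libraries. Ratios between RNAs do not give ratios between proteins.

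Ordered by mean TPM, the genes ran Tead2, Yap1, Stk3, Tead1, Lats2, Stk4, Tead3, Wwtr1, Lats1 and Tead4. The ranges of the 2 libraries were apart for 8 of the 9 neighbouring pairs, and Tead3 and Wwtr1 overlapped. On coding transcripts 5 of the 10 genes kept their rank, and Tead1 moved below Lats1. No test was made of any level or ratio: a two-sided exact sign-flip test of a ratio over 2 libraries cannot go below p = 0.5.

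None of the 10 genes differed by more than 1 on the log2(TPM + 1) scale (replicate 1 minus replicate 2), and 34 of 13477 protein-coding genes with a mean of 1 TPM or more did, which is 0.252%. Their differences ran between -0.41 for Tead4 and 0.28 for Tead1, with Tead3 at -0.33. The median absolute difference was 0.137 for the 10 genes and 0.0833 for the protein-coding genes. Neuron markers had a summed level of 261.48 TPM in replicate 1, against 194.04 TPM in replicate 2, and skeletal muscle markers had 255.25 TPM in replicate 1, against 301.38 TPM in replicate 2, with all 3 neuron markers higher in replicate 1 and all 3 muscle markers higher in replicate 2. The part of these cells in the differences of the Teads was not tested.

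**Figure D4:**
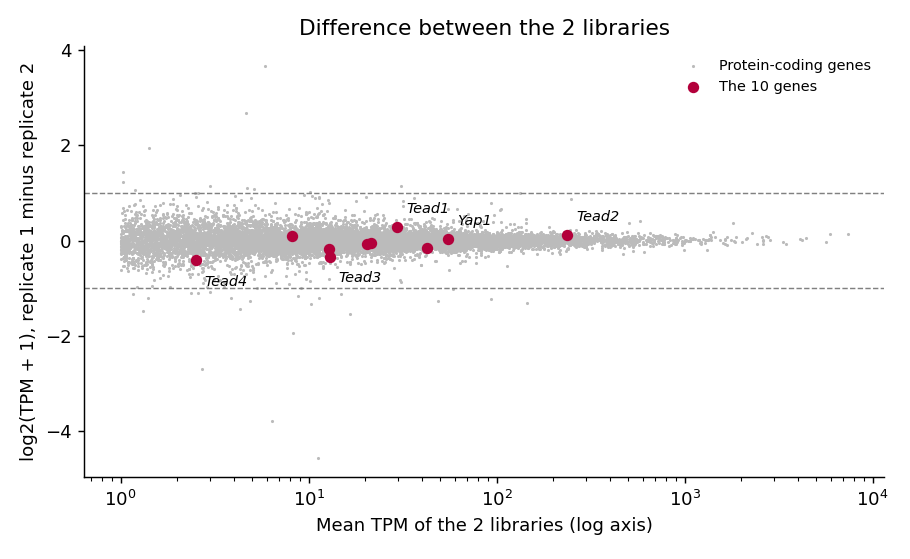
Difference between the libraries (replicate 1 minus replicate 2, log2 of TPM + 1) against mean TPM on a log axis, for 13477 protein-coding genes (grey) and the 10 genes (red), with dashed lines at 1 and -1. The 10 genes lie between -0.41 (Tead4) and 0.28 (Tead1), all inside the lines.

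The partners that carry the signal into and out of the cascade were nearly all present. Of 77 other genes of the pathway, 74 reached 1 TPM in both libraries and 60 reached 10 TPM, with a median of 27.0 TPM. Over all protein-coding genes, 61.8% reached 1 TPM and 41.6% reached 10 TPM, and the median was 5.22 TPM. None of the 77 differed by more than 1 on the log2 scale between the libraries. Of protein-coding genes with a mean of 1 TPM or more, 0.252% did. The kinase adaptors were led by Mob1a, a coactivator of Lats, at 52.14 TPM in replicate 1 and 58.67 TPM in replicate 2. Its paralog Mob1b (11.45 and 12.57 TPM) and the Mst scaffold gene Sav1 (11.66 and 10.93 TPM) were lower.

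All 12 kinases upstream of or parallel to Mst and Lats reached 1 TPM, against 61.8% of all protein-coding genes. Stk38, a relative of the Lats kinases, was highest at 96.08 TPM in replicate 1 and 100.71 TPM in replicate 2, ahead of Map4k4 (55.25 and 48.48 TPM) and Taok2 (47.12 and 43.43 TPM). Taok3 (12.96 and 10.83 TPM) and the blood-cell kinase gene Map4k1 (4.43 and 4.11 TPM) were lowest. Of the 14 membrane and junction regulators, Amotl2, an angiomotin that binds Yap at junctions, had 66.00 and 66.66 TPM. Nf2, the gene of the Lats-recruiting protein Merlin, had 58.33 and 60.43 TPM, and Frmd6 54.67 and 59.74 TPM. The polarity genes Wwc1 (6.43 and 4.70 TPM) and Crb3 (4.32 and 4.14 TPM) were lowest. Of the 14, 11 reached 10 TPM, against 41.6% of all protein-coding genes.

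Genes listed for the inhibitory side of the cascade were also mostly detected. The STRIPAK complex, a phosphatase assembly that holds Mst kinases inactive, and LIM proteins that bind Lats gave 15 genes. Of these, 14 reached 1 TPM, against 61.8% of all protein-coding genes. Their levels do not show how much of each product acts in the Hippo pathway. The phosphatase scaffold gene Ppp2r1a had 279.80 TPM in replicate 1 and 280.60 TPM in replicate 2, Strn4 127.67 and 124.52 TPM, and Mob4 119.68 and 126.05 TPM. Strn (6.16 and 6.05 TPM) and Strip2 (0.93 and 0.85 TPM) were lowest.

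Genes of 14-3-3 proteins, which hold phosphorylated Yap and Taz in the cytoplasm, led the list with the highest median. Ywhaq had 901.82 TPM in replicate 1 and 914.56 TPM in replicate 2, Ywhae 868.81 and 912.77 TPM, and Ywhaz 719.55 and 742.34 TPM. The epithelial 14-3-3 gene Sfn (43.67 and 36.62 TPM) and Btrc, whose ubiquitin ligase subunit degrades Yap and Taz (18.13 and 18.35 TPM), were the lowest of the 10 listed. These proteins serve many pathways besides Hippo.

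Vgll proteins compete with Yap and Taz for Teads, and 1 of their 4 genes was abundant. Vgll4, a Tead corepressor, had 89.81 TPM in replicate 1 and 92.34 TPM in replicate 2, above Yap1 in both. Vgll3 (10.99 and 11.86 TPM), Vgll2, a muscle cofactor (6.49 and 8.48 TPM), and Vgll1 (0.42 and 0.45 TPM) were lower.

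**Figure D5:**
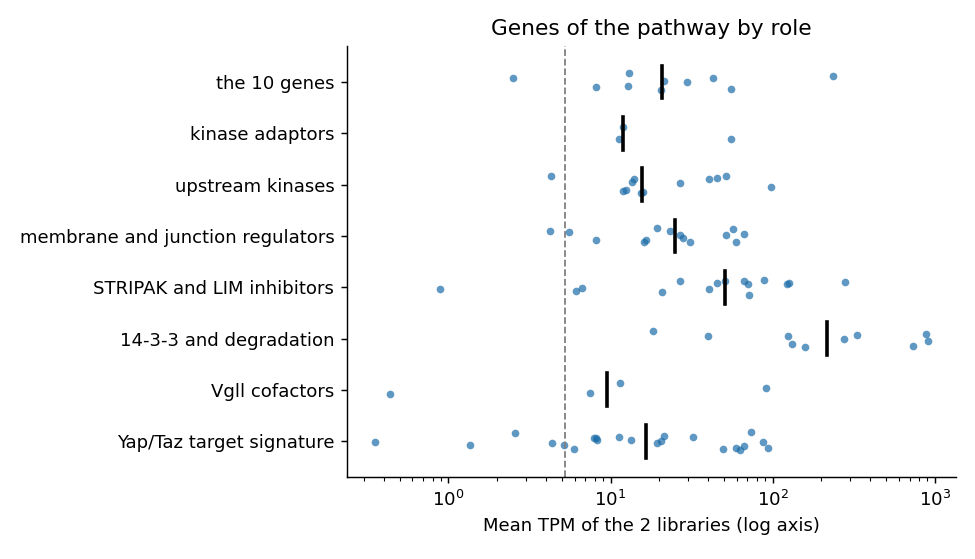
Mean TPM of the 2 libraries on a log axis for each gene (points) of the 10 genes and of 7 lists of pathway genes by role, with each list's median (black bar) and the median of all protein-coding genes (dashed line, 5.22 TPM). The 14-3-3 and degradation list lies highest, with a median of 217 TPM, and the Vgll cofactors have the lowest median, 9.46 TPM.

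Targets of Yap and Taz were mixed in level. A signature of 22 genes, derived in human tumours and read here by mouse symbol, had 21 genes at 1 TPM and 13 at 10 TPM in both libraries, with a median of 16.5 TPM. Over all protein-coding genes, 61.8% reached 1 TPM and 41.6% reached 10 TPM. The signature holds Lats2, itself among the 10 genes, and Amotl2 and Ptpn14 of the membrane list. Igfbp3, a binding protein of insulin-like growth factors, had 94.77 TPM in replicate 1 and 92.95 TPM in replicate 2, Asap1 91.83 and 83.88 TPM, and Rbms3 70.59 and 76.89 TPM.

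Widely used Yap targets differed in level. Ankrd1, a muscle ankyrin repeat gene much used as a Yap reporter, was lowest, at 0.34 TPM in replicate 1 and 0.36 TPM in replicate 2, from 10 and 15 counts. Dock5 was next (1.31 and 1.41 TPM). Ccn1, formerly Cyr61, had 46.97 and 52.55 TPM, and Ccn2, formerly Ctgf, had 8.72 and 7.89 TPM. These matrix protein genes were named after their values were seen.

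The promoters of Yap1 and Ccn1 are shown because each holds a Tead-type element, GGAATG or its reverse complement CATTCC, in the 250 bases before the RefSeq start (GRCm38.p6). Both are given 5′ to 3′ in the sense of the gene, minus strand, with the element in capitals, for Yap1 at chr9:8004597-8004846 and for Ccn1 at chr3:145649986-145650235.
Yap1 promoter: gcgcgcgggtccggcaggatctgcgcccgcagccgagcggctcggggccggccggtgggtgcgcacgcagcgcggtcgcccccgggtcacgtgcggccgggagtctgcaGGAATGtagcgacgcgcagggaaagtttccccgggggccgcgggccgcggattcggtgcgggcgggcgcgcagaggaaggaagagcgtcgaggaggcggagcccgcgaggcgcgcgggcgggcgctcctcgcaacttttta
Ccn1 promoter: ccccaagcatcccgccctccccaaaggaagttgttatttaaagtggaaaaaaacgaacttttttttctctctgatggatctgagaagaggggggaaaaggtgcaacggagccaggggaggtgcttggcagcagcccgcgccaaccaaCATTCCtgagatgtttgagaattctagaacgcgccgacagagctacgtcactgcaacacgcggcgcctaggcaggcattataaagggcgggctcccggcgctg
Of the 10 genes, 7 had promoters in the RefSeq table, and the element was in those of Yap1, Wwtr1 and Tead3 (3 of 7 genes). In the target signature without Lats2, which was counted among the 10 genes, the element was in 6 of 14 genes. The windows of Lats2 hold no element. In all promoters of the table it was in 12.6% of 32851 windows. Ankrd1, the lowest of the signature, is among the 6, and its window holds 2 elements. That window is not shown because it lies inside the gene as annotated in GENCODE M21. Windows of Wwtr1, Tead2, Tead3, Lats2 and Stk4 also lie partly or wholly inside their genes, and all windows were counted. Some genes have several overlapping windows, and both sets are richer in CG dinucleotides than the table as a whole (medians of 20 and 21 per window for the 10 genes and the signature, against 6), so the shares are not like for like. A match of these letters is not a site of binding.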

How the data were processed

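Total RNA from 2 pools of facial prominences was sequenced. Per the deposited notes, reads were aligned to mm10 with GENCODE M4; no quantifier is named there, and RSEM writes columns of these names. Per its title this deposit has been replaced by another. Expected counts, per the file headers, are estimated reads per gene or transcript. The deposited TPM values are scaled for length and library total, with a posterior mean TPM beside them. The authors' FPKM values and isoform percent columns were not used as main values. The deposited interval bounds of TPM are scores whose confidence level is not stated.

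Names, transcript classes and coordinates came from GENCODE M21 (GRCm38), which holds 42462 of the 43346 mouse IDs and 62 of the 71 transcripts of the 10 genes. Isoform shares are percent of the gene's summed transcript TPM, and transcripts at 10% or more were named. No test was made, since there is 1 group of 2 libraries; replicates are separate pools. Ratios are log2 of TPM without a pseudocount. Library differences use log2(TPM + 1). Of each pathway list, the 3 highest and 2 lowest genes were named, and any past a log2 difference of 1. The 10 genes, the lists and these rules were chosen with earlier results of these data known. Counting intervals cover counting error only; 3 counts at 1 kb are 0.172 TPM in replicate 1 and 0.121 TPM in replicate 2.

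Alternatives were posterior mean TPM, FPKM, coding transcripts, other pseudocounts and minimums, TPM over protein-coding genes, TMM-scaled expected counts and each library alone. Python 3.11.15, pandas 2.3.3, scipy 1.17.1, matplotlib 3.10.9 and edgeR 4.0.16 (TMM factors only, R 4.3.3) were used. The labels do not state strandedness or ribosomal RNA depletion. A planned protein comparison was not run.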

Additional observations from a re-analysis of the deposited data

How the results depend on the processing

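Of the values behind the comparisons, 129 kept their direction and call or size under the alternatives, 1 reversed, 2 became called, 9 were no longer called and 7 moved. FPKM and TPM over protein-coding genes scale all genes of a library alike. Ratios and ranks within a library could therefore not change under them beyond rounding, and the 129 include such values. Coding transcripts only reversed Tead1 over Tead3 (-0.44) and left 5 genes at their rank. Counts not divided by length, which do not compare levels between genes, brought Tead1 over Tead3 to 1.28, now called, and ended the calls of Lats1 over Lats2 (-0.83), Stk3 over Stk4 (0.30), the coactivators over the Teads (-0.98) and Lats over Mst kinases (-0.36). Stk3 over Stk4 was also not called with posterior mean TPM (1.03), coding transcripts (1.04) or a pseudocount of 1 (1.03), nor Lats over Mst kinases with posterior mean TPM (-1.05) or coding transcripts (-1.02); in each, 1 library was under the limit. Leaving out a library put Tead1 over Tead3 between 0.87 and 1.52. It counted as called without replicate 2, the library whose value had kept it from being called. Protein-coding genes past a log2 difference of 1 between the libraries numbered 34, and 21 with posterior mean TPM, 96 with a pseudocount of 0.1 and 11 with a minimum of 10 TPM. Posterior means gave 15.3% for the Tead1 exon, 20.9% for its microexon and 42.9% for the Tead4 exon. The causes were not tested, beyond what each alternative changes. No paired analysis was possible because there is 1 group. Few counts stand behind Tead4, Ankrd1 and the minor isoforms.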

Other observations

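Several of the 10 genes share their locus with others, and strandedness is not stated. Stk4 overlaps Tomm34 on the opposite strand, at 52.45 TPM in replicate 1 and 48.62 TPM in replicate 2, which is above Stk4 itself. Tead2 overlaps Cd37 (1.88 and 1.87 TPM), a leukocyte gene, and Wwtr1 holds the processed pseudogene Gm16016 (1.52 and 0.89 TPM). Lats2 overlaps the processed pseudogene Gm20430 (15.02 and 9.90 TPM) and, on its own strand, Gm49361. In M21 a transcript counted under Lats2 belongs to Gm49361, and it was at 0 TPM in both libraries. Another, counted under Tead2, belongs to Med25 and had 0.48 TPM in replicate 1 and 0.67 TPM in replicate 2. How these other genes share reads with the 10 genes was not tested.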
